A study of Homo sapiens with 4 samples.

Results

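To describe caspase and adaptor genes after knockdown of LDB1, the RNA level of 8 genes was taken from RNA-seq of cells labelled NB4, an established acute promyelocytic leukemia cell line. The genes were CASP8, APAF1, CASP9, CASP2, CASP6, CFLAR, CASP4 and CASP1, chosen by name from the 28412 genes of the expression table, and each had 1 row there. In the sh-LDB1 group, LDB1, a transcription co-regulator that joins LIM-domain proteins such as LMO2 to DNA-binding factors, was knocked down with a short hairpin RNA. The sh-NC group was the control, with 2 libraries in each group. The labels call the sh-NC cells untreated and of control genotype, whereas the name sh-NC is that of a negative-control hairpin. The study's methods describe a pLKO.1 lentiviral vector with puromycin selection for its knockdowns and give more than 1 hairpin against LDB1, and the hairpin used for these libraries is not stated in the sources used here. Nothing there says that the libraries of a group came from separate cultures, so the p-values measure only the spread between these libraries, which may be technical. Levels are in FPKM, fragments per kilobase of gene length scaled to a total for the library. That total, as recovered from the values, was 0.979 and 0.974 per recovered read in genes in the sh-NC libraries. In the sh-LDB1 libraries it was 1.05 and 1.06. The total was thus not the count of these reads, it differed by group, and its basis is not given in the sources used here. For CFLAR and CASP8 the gene length, as recovered from the values, was 22529 and 7243 bases, near the sum of all annotated exons. Levels of different genes within a library thus depend on the annotated exons as well as on RNA amount.

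Caspases are cysteine proteases that are made as inactive precursors and cut their targets after aspartate residues. Initiator caspases become active on adaptor platforms, CASP8 on FADD below death receptors and CASP9 on the apoptosome that APAF1 forms with cytochrome c, and they then cleave executioner caspases such as CASP6. Inflammatory caspases, CASP1 and CASP4, cut gasdermin D and release interleukins in myeloid cells. Activity is set by cleavage of the proteins, which an RNA level does not measure.

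The sequences upstream of 3 members are shown here because they are the 2 genes with the largest rise in level and the 1 with the smallest adjusted p among those that fell. They were read from RefSeq on build GRCh38.p14 as the 250 bases before an annotated start, and each lies on the + strand. The capitals mark GATAA, the core of the motif bound by GATA factors, which LDB1 complexes can contain.
CASP8, chr2:201233213-201233462: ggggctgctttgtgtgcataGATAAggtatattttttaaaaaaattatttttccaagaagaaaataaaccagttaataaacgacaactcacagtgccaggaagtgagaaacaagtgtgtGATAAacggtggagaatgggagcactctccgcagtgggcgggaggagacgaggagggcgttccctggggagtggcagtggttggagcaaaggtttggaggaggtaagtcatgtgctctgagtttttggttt
APAF1, chr12:98645040-98645289: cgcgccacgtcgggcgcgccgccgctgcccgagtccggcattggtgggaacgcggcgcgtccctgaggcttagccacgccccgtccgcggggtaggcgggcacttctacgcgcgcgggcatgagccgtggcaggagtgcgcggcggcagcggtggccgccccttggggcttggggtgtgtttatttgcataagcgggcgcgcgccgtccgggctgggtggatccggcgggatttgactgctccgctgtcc
CASP2, chr7:143288101-143288350: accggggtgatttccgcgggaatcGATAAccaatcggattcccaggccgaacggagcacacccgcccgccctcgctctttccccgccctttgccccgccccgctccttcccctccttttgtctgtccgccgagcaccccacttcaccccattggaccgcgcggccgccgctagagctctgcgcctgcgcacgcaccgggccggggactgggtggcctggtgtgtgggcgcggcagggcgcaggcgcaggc
For CASP8 and CASP2, which have 3 and 2 annotated starts here, the window of the most upstream start is printed, and for APAF1 its only window. The printed CASP8 window held 2 copies of GATAA, that of CASP2 held 1 and that of APAF1 held 0, and the other CASP8 and CASP2 windows held 0. The reference had 14 such windows for 7 members, and GATAA or its reverse complement TTATC was in 4 of them, 1 window each of CASP8, CASP2, CFLAR and CASP4. Of the 35116 windows of all genes, 20.4% held it on either strand. No binding was measured in these libraries, and the letters alone are a description.

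LDB1 itself went from 135.1 and 120.1 FPKM under sh-NC to 10.2 and 9.47 FPKM under sh-LDB1, a log2 fold change of -3.56 (SE 0.0765, adjusted p = 6.9e-05). The libraries held between 14269070 and 16528635 reads in genes, as recovered from the FPKM values. Of 13300 genes tested, 67.4% changed, 29.9% higher and 37.4% lower. Past the fold threshold, 52.0% of the changed genes were lower, which became 37.9% with every library rescaled to the same sum (TPM) and 42.6% with scaling to total reads. The median log2 difference of all genes moved from -0.08 to 0.07 with the TPM scaling. Erythroid marker RNA was abundant although the label names a promyelocytic line. The 9 erythroid markers reported here were each above 1 FPKM in every library, and their summed level came to 3882 and 4058 FPKM in sh-NC against 323.3 and 289.1 in sh-LDB1, each of the 9 being lower. The promyelocytic and granulocytic markers with values, 8 of 10, summed to 12.7 and 11.7 FPKM in controls and 46.3 and 42.8 FPKM after knockdown. Of these, 7 were tested and 5 rose, of which ITGAM reached the filter only through the sh-LDB1 group, while ELANE was at 0 in 3 libraries. The defining genes MPO and CTSG were not analysed here. The monocytic markers with values, 5 of 7, summed to between 0.196 and 1.02 FPKM in every library. The lymphoid markers with values, 4 of 6, likewise came to 24.1 and 21.3 against 44.9 and 47.7 FPKM, and 1 of the 2 tested rose, CD3D. The part of these marker changes in the results below was not tested.

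Results showed that CASP8 and APAF1, the initiator of the death receptor pathway and the scaffold of the apoptosome, rose by more than a doubling in the sh-LDB1 libraries, while CASP2, CASP6 and CFLAR fell by less. A gene was called changed when limma, on log2(FPKM + 1), gave a Benjamini-Hochberg adjusted p below 0.05 over all genes tested. It was past the fold threshold when its fold of FPKM + 1 was also above 2 or below 0.5. The added 1 FPKM makes these folds smaller than those of the printed FPKM, most so at low levels. Past the fold threshold were 1264 genes higher and 1371 lower, against 1731 and 1921 with 0.01 FPKM added instead. Of the 8 members, 6 reached the mean of 1 FPKM needed for the test, and all 6 were above 1 FPKM in every library. Of these 6, 2 rose and 3 fell, against 67.4% of all tested genes called in either direction. With the TPM scaling or scaling to total reads, 3 rose and 1 fell. The 2 that rose also passed the fold threshold, which 19.8% of all tested genes did, 9.5% higher and 10.3% lower. The groups did not overlap for any of the 6, as was also the case for 84.6% of all tested genes. The median log2 fold change of the 6 was -0.01, and that of all tested genes was -0.08. In bulk RNA, fewer cells expressing a gene and less of its RNA per cell cannot be told apart.

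**Figure D1:**
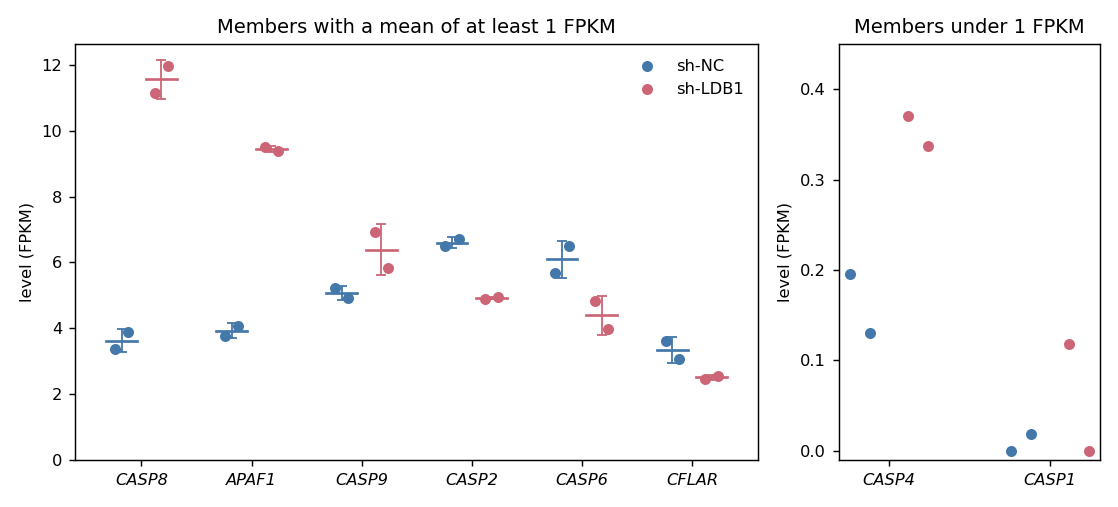
Level of the 8 members (vertical axis, FPKM), with sh-NC and sh-LDB1 libraries side by side. Points are libraries, and in the left panel lines are group means and bars are SD (n = 2). CASP8 and APAF1 lie far higher in both sh-LDB1 libraries, CASP2, CASP6 and CFLAR lie lower, and CASP4 and CASP1, on their own axis on the right without means, stay below 0.4 FPKM.

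CASP8, which starts the caspase cascade below death receptors, lies on the + strand of chromosome 2 at 201233443-201361836 (GENCODE release 44, GRCh38). The controls had 3.37 and 3.88 FPKM of CASP8 RNA, and the knockdown libraries had 11.2 and 12.0 FPKM. Both sh-LDB1 libraries were thus well above both controls, and the spread within either group was small beside the gap. The mean rose from 3.62 ± 0.358 to 11.6 ± 0.586 FPKM (SD, n = 2), a log2 fold change of 1.44 (SE 0.0815, 95% interval 1.23 to 1.66, adjusted p = 0.000257 by limma). Among all tested genes, 95.7% had a lower log2 fold change. Between 395 and 1313 reads stood behind the value in each library.

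APAF1, which binds cytochrome c and assembles the wheel on which CASP9 becomes active, lies on chromosome 12 at 98645290-98735433 on the + strand. Control libraries gave 3.77 and 4.08 FPKM, whereas sh-LDB1 libraries gave 9.51 and 9.38 FPKM. The groups stood apart, and the sh-LDB1 libraries differed little from each other. The mean went from 3.92 ± 0.223 to 9.45 ± 0.0892 FPKM, a log2 fold change of 1.09 (SE 0.0626, 95% interval 0.92 to 1.25, adjusted p = 0.00027 by limma), and 91.6% of tested genes had a lower one. Each library gave between 476 and 1205 reads for it.

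CASP9, the protease that APAF1 activates, did not pass the test. It lies on the - strand of chromosome 1 at 15490832-15526534, and its level was 5.22 and 4.93 FPKM in controls against 6.93 and 5.84 FPKM after knockdown. Both sh-LDB1 libraries were above the controls, but the second was much nearer to them than the first. The log2 difference was 0.28 (SE 0.0933, 95% interval 0.03 to 0.53, adjusted p = 0.0526 by limma), and 68.5% of tested genes had a lower one. Without the second sh-LDB1 library the difference was 0.39 and passed (adjusted p = 0.0349), and without the first it was 0.17 (adjusted p = 0.201). It also passed with the TPM scaling (0.43, adjusted p = 0.0129), with scaling to total reads (0.38, adjusted p = 0.0211) and, with the replicate number as a block, at adjusted p = 0.0409. Over the 13 alternatives the adjusted p ranged from 0.00973 to 0.201. The exons of CASP9 overlap those of CELA2B on the opposite strand, a pancreatic elastase gene with 0.0848 and 0.0931 FPKM in controls and with 1.54 and 2.09 FPKM after knockdown. Whether the counting used strand is not given in the sources used here, and reads of such partners then cannot be told apart.

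CASP2, an initiator that is activated on the PIDD1 platform after genotoxic stress, fell. The gene lies on the + strand of chromosome 7 at 143288215-143307696. It stood at 6.49 and 6.71 FPKM under sh-NC but 4.90 and 4.95 FPKM under sh-LDB1. The libraries within a group were close together, and both sh-LDB1 values were lower than both controls. The log2 fold change was -0.36 (SE 0.0574, 95% interval -0.51 to -0.21, adjusted p = 0.00531 by limma), with means of 6.60 ± 0.160 and 4.92 ± 0.0404 FPKM. With the TPM scaling it was -0.21 and still past the threshold (adjusted p = 0.0293; range over the 13 alternatives 0.000162 to 0.0392).

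CASP6, an executioner that cleaves nuclear lamins, also fell. It lies on the - strand of chromosome 4 at 109688622-109703583. CASP6 measured 5.69 and 6.49 FPKM without and 4.82 and 3.98 FPKM after knockdown, so the groups did not overlap although the replicates differed by nearly as much as the groups' nearest values. The log2 fold change was -0.40 (SE 0.110, 95% interval -0.69 to -0.10, adjusted p = 0.0304 by limma). The call was lost without the second sh-NC library (-0.31, adjusted p = 0.119), without the second sh-LDB1 library (-0.28, adjusted p = 0.113) and with the TPM scaling (-0.25, adjusted p = 0.0958), and the adjusted p ranged from 0.0157 to 0.119 over the 13 alternatives. This gene had the fewest reads of the 6, between 117 and 186 in each library. Its exons overlap those of the opposite-strand gene MCUB, which had 1.07 and 1.05 FPKM in controls, against 0.980 and 1.13 FPKM.

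CFLAR, which encodes the FLIP proteins that resemble CASP8 and hold it back at the death receptor complex, fell from a mean of 3.35 ± 0.389 to 2.51 ± 0.0732 FPKM. It lies on chromosome 2 at 201116154-201176687 on the + strand. By library it was 3.62 and 3.07 FPKM under sh-NC, then 2.46 and 2.56 FPKM under sh-LDB1. The sh-LDB1 libraries were both lower than the controls, which were themselves the more widely spread pair. The log2 fold change was -0.30 (SE 0.0976, 95% interval -0.57 to -0.04, adjusted p = 0.0466 by limma). It was not past the threshold without the first sh-NC library (-0.21, adjusted p = 0.163), the first sh-LDB1 library (-0.28, adjusted p = 0.167) or the second sh-LDB1 library (-0.33, adjusted p = 0.127). The TPM scaling gave -0.18 (adjusted p = 0.178), scaling to total reads gave -0.22 (adjusted p = 0.112) and the replicate block gave adjusted p = 0.0733, within a range of 0.000385 to 0.178 over the 13 alternatives. The values are per gene, so the long and short FLIP isoforms could not be separated. The antisense gene CFLAR-AS1, which overlaps its exons, gave 0.342 and 0.548 FPKM in controls, against 0.288 and 0.320 FPKM.

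CASP4, which senses bacterial lipopolysaccharide in the cytoplasm, was present at a low level and was under the filter of the test. It lies on the - strand of chromosome 11 at 104942866-104969366. Controls had 0.196 and 0.131 FPKM of it, against 0.370 and 0.337 FPKM after knockdown, from 23, 14, 43 and 37 reads. Both sh-LDB1 libraries were higher than both controls. With no filter on low values, the difference on log2(FPKM + 1) was 0.22 (SE 0.0659, adjusted p = 0.0839 by limma), a size set largely by the added 1 FPKM at this level, since it was 0.79 with 0.1 FPKM added and 1.09 with 0.01 FPKM added. With the filter lowered to a mean of 0.1 FPKM the adjusted p was 0.152. Neither passed. CASP1, which matures interleukin 1 beta, lies near it on the same strand at 105025397-105035250 and was at or near 0. Its controls gave 0 and 0.0183 FPKM, and its sh-LDB1 libraries 0.118 and 0 FPKM, that is 0, 1, 7 and 0 reads. A count of 0 allows a level of up to 0.0501 FPKM in the first sh-NC library and 0.0536 FPKM in the second sh-LDB1 library, taken as 3 reads and covering counting error only. No difference was detectable at this depth, and no fold is given. CARD16 and CARD17 are near-identical to the start of CASP1, so reads may have been split between them.

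**Figure D2:**
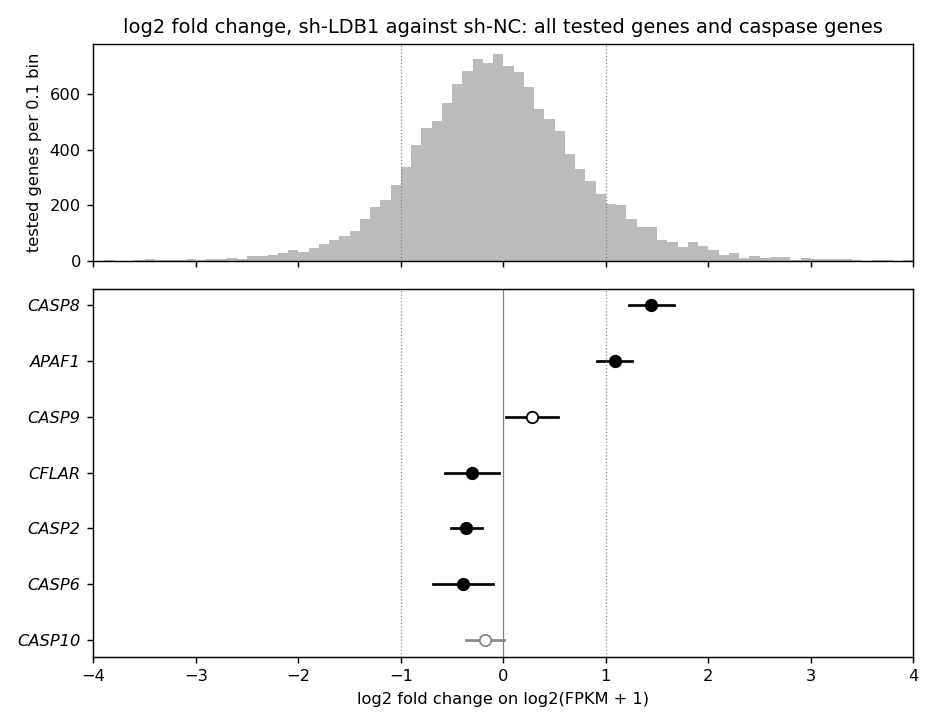
Top, number of tested genes in each bin of 0.1 of log2 fold change (sh-LDB1 against sh-NC, on log2(FPKM + 1)), with the horizontal axis drawn from -4 to 4. Bottom, the 6 tested members in black and CASP10 in grey with 95% intervals, filled where the adjusted p was below 0.05, with dotted lines at a fold of 2 and of 0.5; CASP8 at 1.44 and APAF1 at 1.09 lie in the upper tail, and CASP9, CFLAR, CASP2 and CASP6 lie between 0.28 and -0.40 near the centre.

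The order of the members by FPKM differed between the groups. Within a group, this order also depends on the exon length by which each gene was divided. In sh-NC the order by mean was CASP2, CASP6, CASP9, APAF1, CASP8, CFLAR, CASP4 and CASP1, in which CASP2 and CASP6, APAF1 and CASP8, and CASP8 and CFLAR overlapped in their library values. In sh-LDB1 it was CASP8, APAF1, CASP9, CASP2, CASP6, CFLAR, CASP4 and CASP1, and no neighbours down to CASP4 overlapped. CASP8 thus went from the fifth place to the first.

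To compare each activator or brake with its partner, ratios of levels were taken within each library. The ratio of CFLAR to CASP8 was 1.07 and 0.792 in controls, against 0.221 and 0.214. In FPKM, CFLAR was near parity with CASP8 in the controls and at a small part of its level in both sh-LDB1 libraries. The log2 difference, on values with 1 FPKM added, was -1.75. Before division by length, the controls had 1320 and 1020 reads of CFLAR against 395 and 414 of CASP8. The parity thus depends on the lengths used, and only the change between groups is read here. The ratio of APAF1 to CASP9 was 0.722 and 0.828 in controls, against 1.37 and 1.61, a log2 difference of 0.81. In FPKM, APAF1 was below CASP9 in both controls and above it in both sh-LDB1 libraries, whereas in reads it was above CASP9 in every library. For both ratios the groups did not overlap and the exact two-sided permutation test gave p = 0.333, the smallest p that 2 libraries against 2 allow. The ratio of CASP4 to CASP1 was not computed, since CASP1 was at 0 in 2 libraries.

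**Figure D3:**
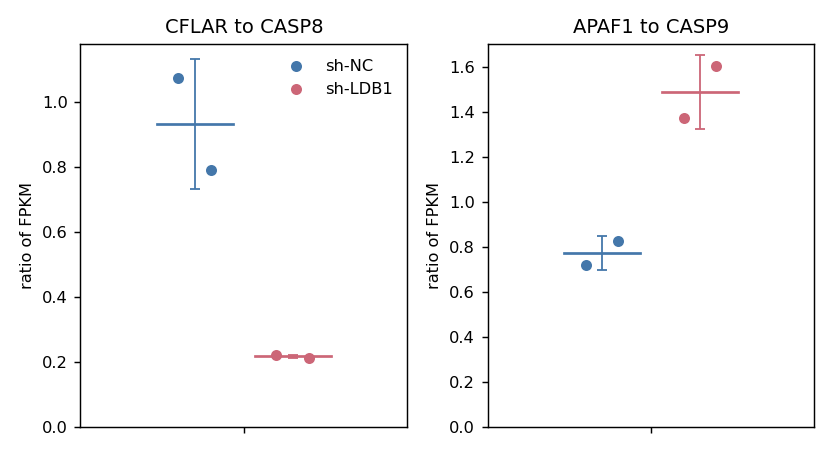
Ratio of FPKM of CFLAR to CASP8 (left) and of APAF1 to CASP9 (right), with points for libraries, lines for group means and bars for SD (n = 2). The first is 1.07 and 0.792 without and 0.221 and 0.214 with the knockdown, and the second 0.722 and 0.828 without and 1.37 and 1.61 with it.

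CFLAR, CASP10 and CASP8 lie next to each other in this order on the + strand of chromosome 2, with 6184 bases between CFLAR and CASP10 and 4014 bases between CASP10 and CASP8. Of these 3 neighbours CASP8 rose and CFLAR fell, but the call of CFLAR was lost with the TPM scaling (-0.18, adjusted p = 0.178 by limma). CASP10, the other initiator of the death receptor pathway, had 3.79 and 3.88 FPKM in controls against 3.29 and 3.25 FPKM, and its log2 difference of -0.18 did not pass (adjusted p = 0.073 by limma). Its value lies between those of CFLAR, at -0.30, and CASP8, at 1.44. Whether these differences differ from each other was not tested for the pairs with CASP10.

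Beyond the 8 members, a list of 60 genes that act with caspases was examined, 55 of which had values. Of these, 40 reached the filter, 20 rose and 14 fell, against 29.9% and 37.4% of all tested genes. Past the fold threshold were 10 higher and 5 lower, against 9.5% and 10.3% of all tested genes. Of the 10, 5 (DIABLO, BIRC7, IFI16, GSDMD and IL18) reached the filter only through the sh-LDB1 group and so had to be higher there, and 0 genes of the list reached it only through sh-NC. Without the first sh-LDB1 library the count that fell was 9.

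All 8 adaptors of death receptor and related complexes were tested, 5 rose and 3 fell, beside 29.9% higher and 37.4% lower among all tested genes, and the median log2 fold change was 0.36 beside -0.08. The 5 that rose were TRADD, RIPK1, FADD, DEDD2 (0.53) and PIDD1, and the 3 that fell were TRAF2 (-0.58), CRADD and DEDD (-0.20). FADD, which recruits CASP8, went from 7.12 and 6.04 to 10.7 and 11.7 FPKM (0.69, adjusted p = 0.00307), and RIPK1, a kinase that CASP8 cleaves, from 9.54 and 10.3 to 17.8 and 17.9 FPKM (0.78, adjusted p = 0.00049). TRADD, which links TNF receptors to this complex, was the 1 gene past the fold threshold, moving from 12.2 to 32.7 FPKM on average (1.36). Apart from TRADD, these adaptors were named after their values were seen. PIDD1 and CRADD, the platform of CASP2, were likewise picked and had log2 fold changes of 0.20 and -0.37, both past the threshold.

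All 5 mitochondrial factors were tested. Of these 2 rose, 1 of them (DIABLO) admitted only through sh-LDB1, and 3 fell, beside 29.9% and 37.4% of all tested genes. CYCS, the cytochrome c that APAF1 binds, went from 71.3 and 68.5 to 77.0 and 76.8 FPKM (0.14, adjusted p = 0.0396). AIFM1 and ENDOG, which act in caspase-independent DNA breakdown, had log2 fold changes of -1.46 and -1.30, from 45.7 to 16.0 FPKM and from 24.8 to 9.48 FPKM. DIABLO, which displaces IAP proteins, was the 1 past the fold threshold upward, at 0.460 and 2.31 FPKM. CYCS and DIABLO were picked after their values were seen. Among the IAP family and related inhibitors 5 of 8 were tested, 2 rose, 1 of them (BIRC7) admitted only through sh-LDB1, and 1 fell. The same 29.9% and 37.4% of all tested genes stand beside this count. XIAP, a direct inhibitor of CASP9, rose from 6.06 to 18.4 FPKM (1.46, adjusted p = 0.000155). BIRC5, which acts mainly in cell division, fell from 44.7 to 19.2 FPKM (-1.18). The other that rose, BIRC7, had 0.158 and 0 FPKM in controls, against 5.16 and 6.43 FPKM, and was picked after its values were seen.

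Of the 19 inflammasome and pyroptosis genes 18 had values and 10 were tested. Of these 7 rose and 2 fell, beside 29.9% and 37.4% of all tested genes. Of the 7, 3 (IFI16, GSDMD and IL18) passed the filter only through the sh-LDB1 group, so the count leans upward by its construction. Past the fold threshold were 5 higher, these 3 among them, and 1 lower, beside 9.5% and 10.3% of all tested genes. NINJ1, which ruptures the membrane of dying cells, had the largest rise in this list among genes averaging at least 5 FPKM, from 5.51 to 34.3 FPKM (2.44, adjusted p = 7.0e-05). SERPINB9, an inhibitor of granzyme B, rose from 19.1 to 44.5 FPKM (1.18), and NEK7, a partner of NLRP3, fell from 15.0 to 5.85 FPKM (-1.22). The other 3 past the fold threshold, named after their values were seen, were IFI16 at 0.290 and 5.16 FPKM, GSDMD at 0.454 and 2.21 FPKM, and IL18 at 0.684 and 2.42 FPKM. Genes that can join CASP1 in an inflammasome varied in level, and those given here were picked after their values were seen. The adaptor PYCARD was at 0 FPKM in both sh-NC libraries with 0.0376 and 0.0796 FPKM after knockdown, and the sensor NLRP3 was at 0 FPKM in 3 libraries. The sensor NLRP1 was higher, going from 9.18 and 8.97 to 18.4 and 18.2 FPKM (0.94, adjusted p = 0.000192). NLRC4 fell from a mean of 2.87 to 2.18 FPKM (-0.28, adjusted p = 0.0369), and CARD8 had 2.70 and 3.01 FPKM and did not pass (0.11, adjusted p = 0.286). Of 4 necroptosis genes 3 had values and 1 was tested, CYLD, which rose without passing the fold threshold (0.48) and is named only as the single gene of this count. Of 12 caspase substrates 10 were tested, 3 rose and 5 fell, beside the 29.9% and 37.4% of all tested genes, with a median of -0.17 beside -0.08. SPTAN1, a spectrin, rose from 3.84 to 17.4 FPKM (1.93), and LMNB1, a nuclear lamin, fell from 64.4 to 24.7 FPKM (-1.35).

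**Figure D4:**
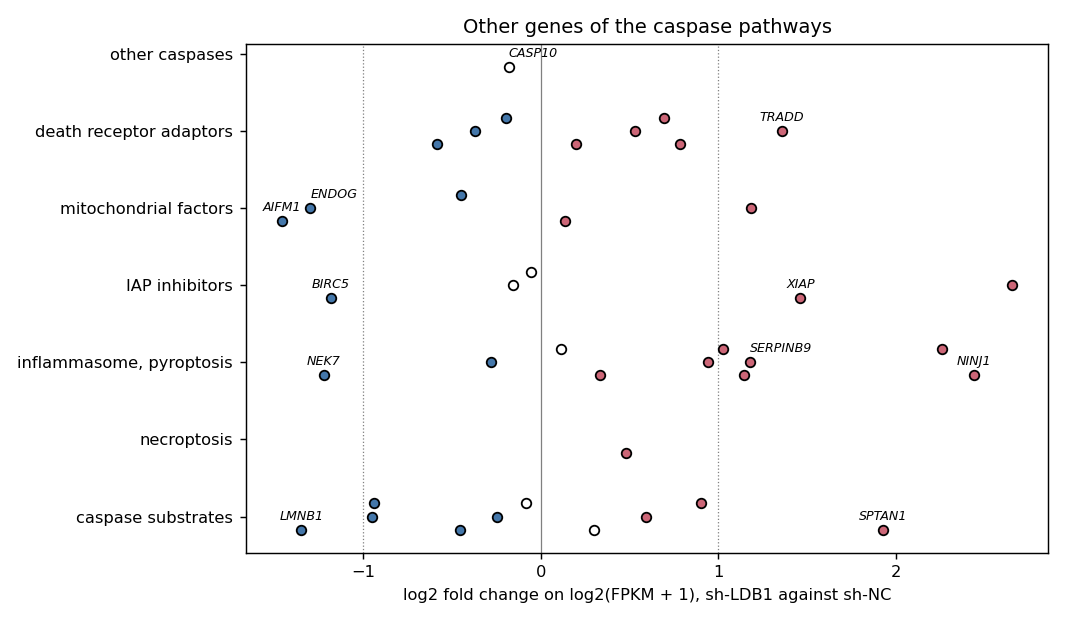
Log2 fold change (sh-LDB1 against sh-NC, on log2(FPKM + 1)) of the 40 tested genes that act with caspases, grouped by role. Filled red and blue points are genes that rose or fell at adjusted p below 0.05, open points did not pass, and dotted lines mark a fold of 2 and of 0.5. The groups hold genes on both sides of 0, except for CASP10 alone at -0.18 and the 1 necroptosis gene at 0.48, and NINJ1 at 2.44 is among the highest.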

How the data were processed

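RNA was measured by RNA-seq in 4 libraries. These were made from total RNA with the Illumina TruSeq kit, and the submitters' processing notes name HISAT2 2.0.5 and hg38. The counter, annotation and strand setting are not given in the sources used here. The authors deposited 1 table of FPKM values with gene names. No sequencing depth came with it, and depth was taken from whole reads recovered from the FPKM and gene length (tolerance 0.005), found for 98.96% of annotated genes and totalling 14269070 to 16528635 reads in a library. Replicates differed by more than sampling noise of these reads, with an average chi-square of 4.11 (sh-NC) and 2.11 (sh-LDB1) a gene.

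Libraries were grouped by their labels, 2 in each group. Values were tested as log2(FPKM + 1) with limma 3.58.1 in R 4.3.3 over the 13300 genes whose mean reached 1 FPKM, with a trended variance prior and Benjamini-Hochberg adjustment. The test tool of the study, DESeq2, needs counts and was not used. Positions came from GENCODE release 44. The 13 alternatives changed the pseudocount, filter, scaling, variance prior, model, replicate block and libraries used. The fit was tested on simulated data, where few genes changed and by larger folds than those of CASP9, CASP6 and CFLAR. That test does not bear on the calls of these genes.

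The members and gene lists were chosen with earlier results of these data known. Named genes were LDB1, the members, other caspases, the marker genes and, from each other list, up to 3 genes past both thresholds with a mean of at least 5 FPKM and the largest fold change. Genes named outside this rule are marked. Some listed genes are not reported here, with any sum over the family. CASP5, CASP12 and CASP14 were not analysed here, and CASP1 has no promoter window printed.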

Additional observations from a re-analysis of the deposited data

How the results depend on the processing

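In each of the 13 alternatives, CASP8 (1.36 to 1.68), APAF1 (1.04 to 1.27), CASP2 (-0.42 to -0.21) and LDB1 kept their direction and passed the threshold. The direction of CASP9, CASP6 and CFLAR held in all 13, but their calls did not, and the cause was not tested. CASP9 passed at 0.43 with the TPM scaling, 0.38 with total reads, 0.33 with voom on recovered reads and 0.28 with the replicate block, and leaving out 1 library gave 0.17 to 0.39. CASP6 did not pass at -0.40 with no filter or with a mean of at least 0.1 FPKM, where more genes were tested, nor at -0.25 (TPM) or -0.30 (total reads), and leaving out 1 library gave -0.51 to -0.28. CFLAR did not pass at -0.30 with no filter, the lower filter or the replicate block, nor at -0.18 (TPM) or -0.22 (total reads), and leaving out 1 library gave -0.40 to -0.21. CASP4 moved to 0.79 with a pseudocount of 0.1 and to 1.09 with 0.01. The log2 difference of the ratio of CFLAR to CASP8 moved to -2.05 and -2.08 with these pseudocounts and to -2.09 in reads, an alternative added after seeing the data, and leaving out 1 library gave -1.92 to -1.58. The counts of the 60 listed genes were 17 to 24 higher and, with all libraries, 10 to 14 lower, and leaving out 1 library gave 9 to 12 lower, with 9 without the first sh-LDB1 library. Fits without 1 library leave 1 in its group, which is assumed to vary like the others. Replicate numbers did not pair the libraries (correlation of deviations 0.0196), and the block changed no other member's call. CASP1 was under the filter, and with no filter its difference was 0.07 (95% interval -0.13 to 0.26, adjusted p = 0.502 by limma). Its ratio with CASP4 was not run. With 2 libraries in each group, the spread itself is known poorly.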
